A study of Mus musculus with 6 samples.

Results

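Drug efflux in the kidney was examined at 8 genes, Abcb1a, Abcb1b, Abcc2, Abcc4, Abcg2, Slc47a1, Slc47a2 and Slco4c1, in a pooled map of accessible chromatin from mouse kidney cortex. For each gene, the distinct intervals of the deposited peak list that overlapped the stretch from 3 kb upstream of the gene start to the gene end (GENCODE M39, GRCm39) were taken, and each interval was given the fold enrichment and the −log10 q of its highest summit. This gave 183 of the 279569 intervals in the list, and no interval fell to more than 1 gene. The rule used gene names and positions only.

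The study asked whether ATP-citrate lyase (ACLY), the enzyme that makes cytosolic acetyl-CoA from citrate, shapes chromatin in kidney tubule cells. Nuclei were opened to the Tn5 transposase, which inserts adapters where DNA is accessible (ATAC-seq). The 3 WT libraries mapped here came from Acly fl/fl littermates without Cre, and the 3 Acly cKO libraries from Acly fl/fl; Ksp-Cre mice, in which Cre runs from the Ksp-cadherin promoter, active along the tubular epithelium from the proximal tubule to the collecting duct. Both groups carry the floxed Acly alleles and the label gives both the treatment Control, with no drug or injury. For age, the methods give a general range for the mice of the study and none for these libraries. The labels place the WT libraries in batches 1 and 2 and those of Acly cKO kidneys in batches 4 and 5. Genotype and batch therefore cannot be told apart. All values below come from a peak call in which, by its peak names, all libraries were combined. They therefore carry no spread between kidneys, the depth of each library is unknown, and no comparison of the genotypes could be made. Further WT kidneys of the study were deposited elsewhere and are not analysed here, and the files do not show whether they entered the combined call.

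Renal drug efflux runs mainly in the proximal tubule, where carriers in the basolateral membrane bring drugs from blood into the cell and pumps in the apical brush border push them into the urine. Abcb1a and Abcb1b encode the mouse P-glycoproteins, which pump lipophilic drugs such as digoxin. Abcc2 (MRP2) and Abcc4 (MRP4) export organic anions, Abcg2 (BCRP) exports urate and sulphated conjugates, and Slc47a1 (MATE1) exchanges organic cations such as metformin for protons, while Slc47a2 (MATE2) is a related exchanger described in the mouse mainly in testis. Slco4c1 (OATP4C1) differs from the others in direction, since it is known as a basolateral carrier that takes digoxin and uraemic toxins up into the tubule cell.

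The sequence at the canonical start of each gene is given first, because every one of these starts lay in an accessible interval. Each line runs 5′ to 3′ on the strand of the gene from GRCm39, over the 180 bases before the start and 20 bases from it on, cut short for Slc47a1 and Slco4c1 so that no more than 30 untranslated bases are shown. Capitals mark matches on either strand to the GC box GGGCGG, the CCAAT box CCAAT and the antioxidant response element TGACNNNGC, which do not overlap each other here.
Abcb1a promoter, chr5:8709842-8710041, strand +: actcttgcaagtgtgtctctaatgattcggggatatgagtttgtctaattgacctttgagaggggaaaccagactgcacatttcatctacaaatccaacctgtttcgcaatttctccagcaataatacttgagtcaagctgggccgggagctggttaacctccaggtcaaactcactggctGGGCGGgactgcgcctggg
Abcb1b promoter, chr5:8847814-8848013, strand +: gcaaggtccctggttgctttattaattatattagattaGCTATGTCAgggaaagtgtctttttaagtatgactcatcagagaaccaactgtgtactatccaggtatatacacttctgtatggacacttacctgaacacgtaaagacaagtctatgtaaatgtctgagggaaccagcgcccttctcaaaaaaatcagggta
Abcc2 promoter, chr19:43770451-43770650, strand +: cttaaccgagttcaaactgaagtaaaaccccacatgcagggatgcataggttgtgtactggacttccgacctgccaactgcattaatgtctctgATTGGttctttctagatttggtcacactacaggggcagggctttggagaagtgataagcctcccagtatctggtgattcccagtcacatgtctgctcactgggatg
Abcc4 promoter, chr14:118943895-118944094, strand -: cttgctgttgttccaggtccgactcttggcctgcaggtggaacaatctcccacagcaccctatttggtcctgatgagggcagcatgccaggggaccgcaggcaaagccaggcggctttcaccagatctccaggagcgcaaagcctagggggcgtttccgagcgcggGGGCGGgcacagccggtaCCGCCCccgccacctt
Abcg2 promoter, chr6:58617321-58617520, strand +: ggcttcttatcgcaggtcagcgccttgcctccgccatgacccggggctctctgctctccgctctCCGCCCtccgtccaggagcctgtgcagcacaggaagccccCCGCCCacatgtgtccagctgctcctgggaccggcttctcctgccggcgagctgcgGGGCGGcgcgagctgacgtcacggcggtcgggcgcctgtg
Slc47a1 promoter, chr11:61268935-61269034, strand -: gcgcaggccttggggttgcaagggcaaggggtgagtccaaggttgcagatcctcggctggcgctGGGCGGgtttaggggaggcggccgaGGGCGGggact
Slc47a2 promoter, chr11:61233667-61233866, strand -: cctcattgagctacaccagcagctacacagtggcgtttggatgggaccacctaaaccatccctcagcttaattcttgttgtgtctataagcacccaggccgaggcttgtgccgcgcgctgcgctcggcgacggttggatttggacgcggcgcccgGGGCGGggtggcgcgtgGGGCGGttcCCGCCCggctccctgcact
Slco4c1 promoter, chr1:96799901-96799930, strand -: cttaggGCGCTGTCAcctgcccagGGGCGG
The GC box was present in 6 of the 8 promoter windows of 200 bp, all but those of Abcb1b and Abcc2, while 37.5% of 21757 protein-coding promoters held it. Those promoters include starts with no accessible interval. Around the summits of start intervals, it was present in 6 of the 8 windows, all but those of Abcc2 and Slc47a2, against 57.5% of 16490 protein-coding start windows. The antioxidant response element, the element bound by NRF2, was present in the windows of Abcb1b and Slco4c1 (8.71% of promoters), and the CCAAT box in that of Abcc2 (32.3% of promoters). The element of Abcb1b lay 263 bp from the highest summit of its start interval. Abcc2 also had an antioxidant response element, from 18 to 26 bases after its start and 11 bp from its summit. It ran past the end of the window and is not counted here. No window held the TATA box TATAAA (9.12% of promoters). The AGGTCA element of nuclear receptors was present at Abcb1a and Abcg2 (10.3% of promoters) and the xenobiotic response core GCGTG at Slc47a2 (6318 of the 21757 promoters), neither in capitals. A match is a description of the letters and no evidence of binding.

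All 8 genes had an interval within 1 kb of an annotated start, as did 77.8% of the 21757 protein-coding genes. At each of the 8 genes this interval reached at least 5-fold over the background of the caller, against 68.9% of protein-coding genes. The median fold enrichment at the starts was 23.4 over the 8 genes and 21.5 over all protein-coding genes, so the group as a whole sat near the middle of the genome. Within the group the starts spanned from 6.22-fold at Slc47a2 to 46.7-fold at Abcc4.

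In the list, the fold enrichment rises in equal steps of 0.06547, which is what the caller writes when it adds 1 to the number of overlapping windows at the summit (the pileup) and divides by a constant background of 14.27 windows plus 1. The pileup behind each value could thus be read back, and 95% Poisson intervals were computed from it. These cover counting error only, and take the windows as independent. Over all intervals the median pileup was 38 and the median fold enrichment 2.55.

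The apical exporters Abcc4 and Abcg2 had the highest starts. At Abcc4 (ENSMUSG00000032849.16, chr14:118720103-118943924, minus strand, 31 exons) the start interval chr14:118940494-118944997 reached 46.7-fold, from a pileup of 712 (95% interval 43.3 to 50.2), and its summit lay 33 bp before the canonical start. The gene Gm62320 also starts within 1 kb of this interval. At Abcg2 (ENSMUSG00000029802.15, chr6:58561505-58672661, plus strand, 16 exons) the interval chr6:58613235-58619645 reached 42.3-fold, from a pileup of 645 (39.1 to 45.7), with its summit 5 bp into exon 1. These counting intervals overlapped, so the 2 exporters were not ordered.

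The basolateral carrier Slco4c1 (ENSMUSG00000040693.9, chr1:96743995-96800111, minus strand, 13 exons) followed at 34.7-fold, from a pileup of 529 (31.8 to 37.8), in chr1:96798226-96801218. Its summit lay 47 bp upstream of the canonical start, between the 2 antioxidant response elements found from 85 to 77 and from 28 to 20 bases before that start. The start of the non-coding gene Panct2 fell within 1 kb of the same interval, and whether the signal also belongs to that start is not settled.

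The P-glycoprotein genes came next and were alike. Abcb1b (ENSMUSG00000028970.11, chr5:8847994-8916389, plus strand, 28 exons) reached 24.9-fold, from a pileup of 379 (22.4 to 27.5), in chr5:8847812-8849122. Abcb1a (ENSMUSG00000040584.10, chr5:8710022-8798575, plus strand, 28 exons) reached 21.9-fold, from a pileup of 333 (19.6 to 24.3), in chr5:8709699-8710982. The summits did not lie at the same place: that of Abcb1a lay 4 bp after the canonical start, on the GC box shown above, and that of Abcb1b lay 125 bp after it, beside a GC box 105 to 110 bases after that start and 4 bp before another annotated start. The non-coding gene Gm5106 also starts within 1 kb of the Abcb1b interval.

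The cation exchanger Slc47a1 and the anion exporter Abcc2 were lower. Slc47a1 (ENSMUSG00000010122.16, chr11:61234226-61269171, minus strand, 17 exons) reached 15.5-fold at its start, from a pileup of 236 (13.6 to 17.6), in chr11:61267545-61270298, 19 bp upstream of the canonical start. Abcc2 (ENSMUSG00000025194.7, chr19:43770631-43829179, plus strand, 32 exons) reached 10.1-fold, from a pileup of 154 (8.62 to 11.9), in chr19:43770277-43770930, 11 bp into exon 1. Of the 8 start windows of 200 bp around the summit, only that of Abcc2 matched the HNF1 palindrome (GTTAAT, any base, ATTAAC, with up to 2 mismatches), as gttaactattaag from 41 to 53 bases after the start. That motif was present in 1.01% of the 16490 start windows of protein-coding genes and in 2.70% of all summit windows. The Abcc2 match had 2 mismatches, and none of the 8 promoter windows of 200 bp held the motif (1.02% of promoters).

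Slc47a2 (ENSMUSG00000069855.10, chr11:61192457-61233686, minus strand, 17 exons) had the lowest start, 6.22-fold from a pileup of 94 (5.04 to 7.60), in chr11:61232696-61234129. Its highest summit did not lie at the canonical start but 255 bp after it, in intron 1, 21 bp before the start of the other annotated transcript, and no summit of the list lay within 150 bp of the canonical start. The gene follows Slc47a1 in the same orientation, with 539 bp between them. Along the order Abcg2, Slco4c1, Abcb1b, Abcb1a, Slc47a1, Abcc2 and Slc47a2, the counting intervals of neighbours overlapped only between Abcb1b and Abcb1a. In bulk nuclei, accessibility in more cells and higher accessibility per cell cannot be told apart.

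**Figure D1:**
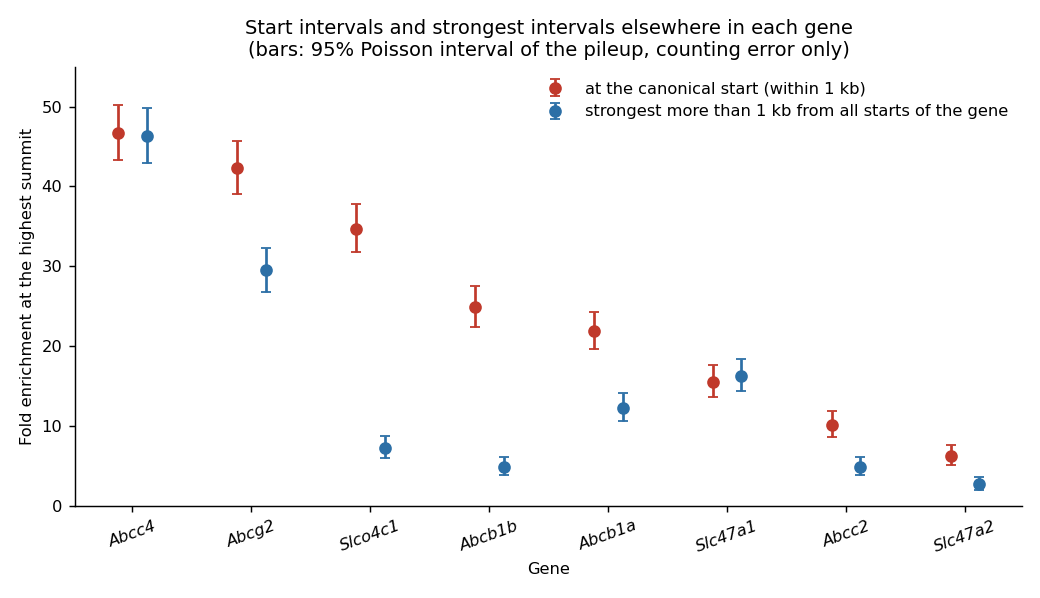
Fold enrichment (linear axis) at the highest summit for each of the 8 genes, in red for the interval at the canonical start and in blue for the strongest interval more than 1 kb from all starts of the gene, with 95% Poisson intervals of the pileup. The red points fall from 46.7 at Abcc4 to 6.22 at Slc47a2, and the blue point meets the red one at Abcc4 and Slc47a1.

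CpG content at the start varied among the genes. The ratio of observed to expected CpG, over 500 bp either side of the canonical start, ran from 0.299 at Abcc2 to 0.878 at Abcc4. In the CpG-poor class (under 0.4), 41.6% of 8193 protein-coding genes had an interval at the canonical start, and 24.7% had one of at least 5-fold. Abcc2 at 10.1-fold was above 82.9% of the 8193, a share in which genes without an interval count as lower. In the CpG-rich class (0.6 or more), 95.7% of 10378 genes had a start interval of at least 5-fold, and Slc47a2, with a ratio of 0.81, was above 5.63% of the 10378. Abcc4 (63.6%), Abcg2 (56.5%) and Abcb1b (26.9%) of that class were above larger shares of it. Between the limits, Slco4c1 was above 72.9%, Abcb1a above 54.5% and Slc47a1 above 44.4% of 3186 genes. Over all protein-coding genes, by contrast, the canonical starts of Slc47a2 and Abcc2 were above 35.8% and 40.8%, the lowest shares of the 8 genes.

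**Figure D2:**
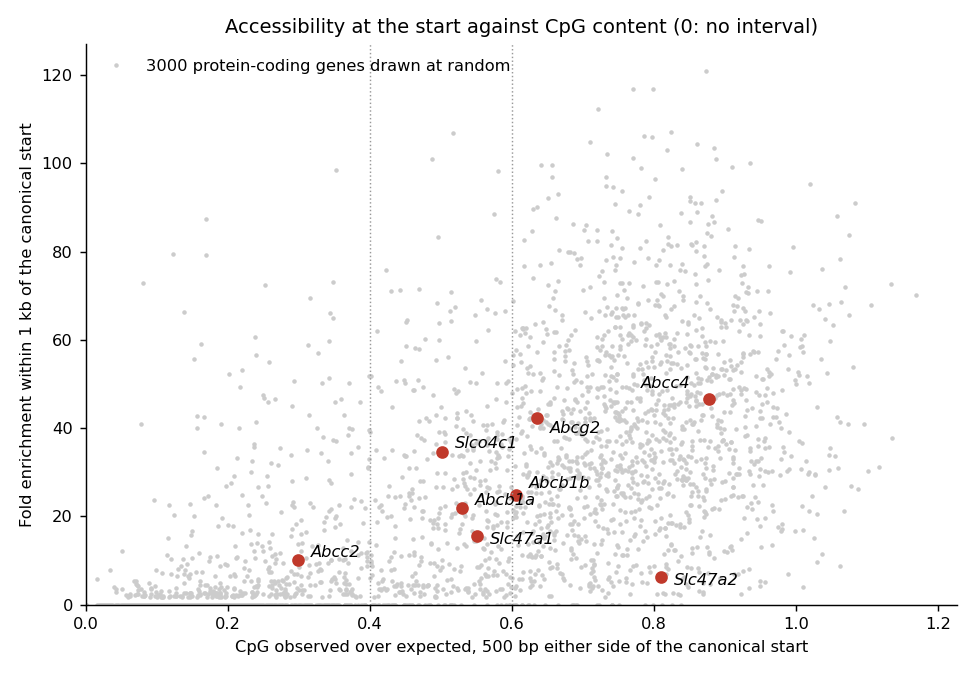
Fold enrichment within 1 kb of the canonical start (linear axis) against the ratio of observed to expected CpG, in grey for 3000 protein-coding genes drawn at random and in red for the 8 transporter genes, with dotted lines at 0.4 and 0.6. Slc47a2 (0.81, 6.22-fold) lies at the foot of the CpG-rich genes and Abcc2 (0.299, 10.1-fold) in the upper part of the CpG-poor ones. Of all CpG-poor genes, 41.6% had an interval there, and those without one are drawn at 0.

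More than 1 kb from all starts of its own gene, the strongest interval ran from 2.68-fold at Slc47a2 to 46.3-fold at Abcc4. Of the 183 intervals, 152 lay more than 1 kb from the start of any annotated transcript of any gene, and 31 lay nearer. The highest summit fell in an intron in 155 intervals, upstream of the canonical start in 17, in a coding exon in 6, in a 5′ UTR exon in 4 and in a 3′ UTR exon in 1. The rule takes only intervals from 3 kb upstream of a gene to its end, and introns fill most of long genes. The same shares were not computed over the whole list, so these counts describe the places and show no trait particular to the 8 genes. At least 5-fold was reached by 39 intervals (21.3%, against 24.5% of the whole list), of which 26 were intronic. The median fold enrichment of the 183 intervals was 2.49, from 1.70 to 46.7, and their median width 517 bp, from 137 to 9530 bp. An interval of at least 10-fold more than 1 kb from all starts of its own gene was present at Abcb1a, Abcc4, Abcg2 and Slc47a1, which is 4 of 8 genes, while 28.4% of protein-coding genes had one. Longer genes offer more room for such intervals, and the 8 genes were long, with a median of 63500 bp against 19200 bp for all protein-coding genes.

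**Figure D3:**
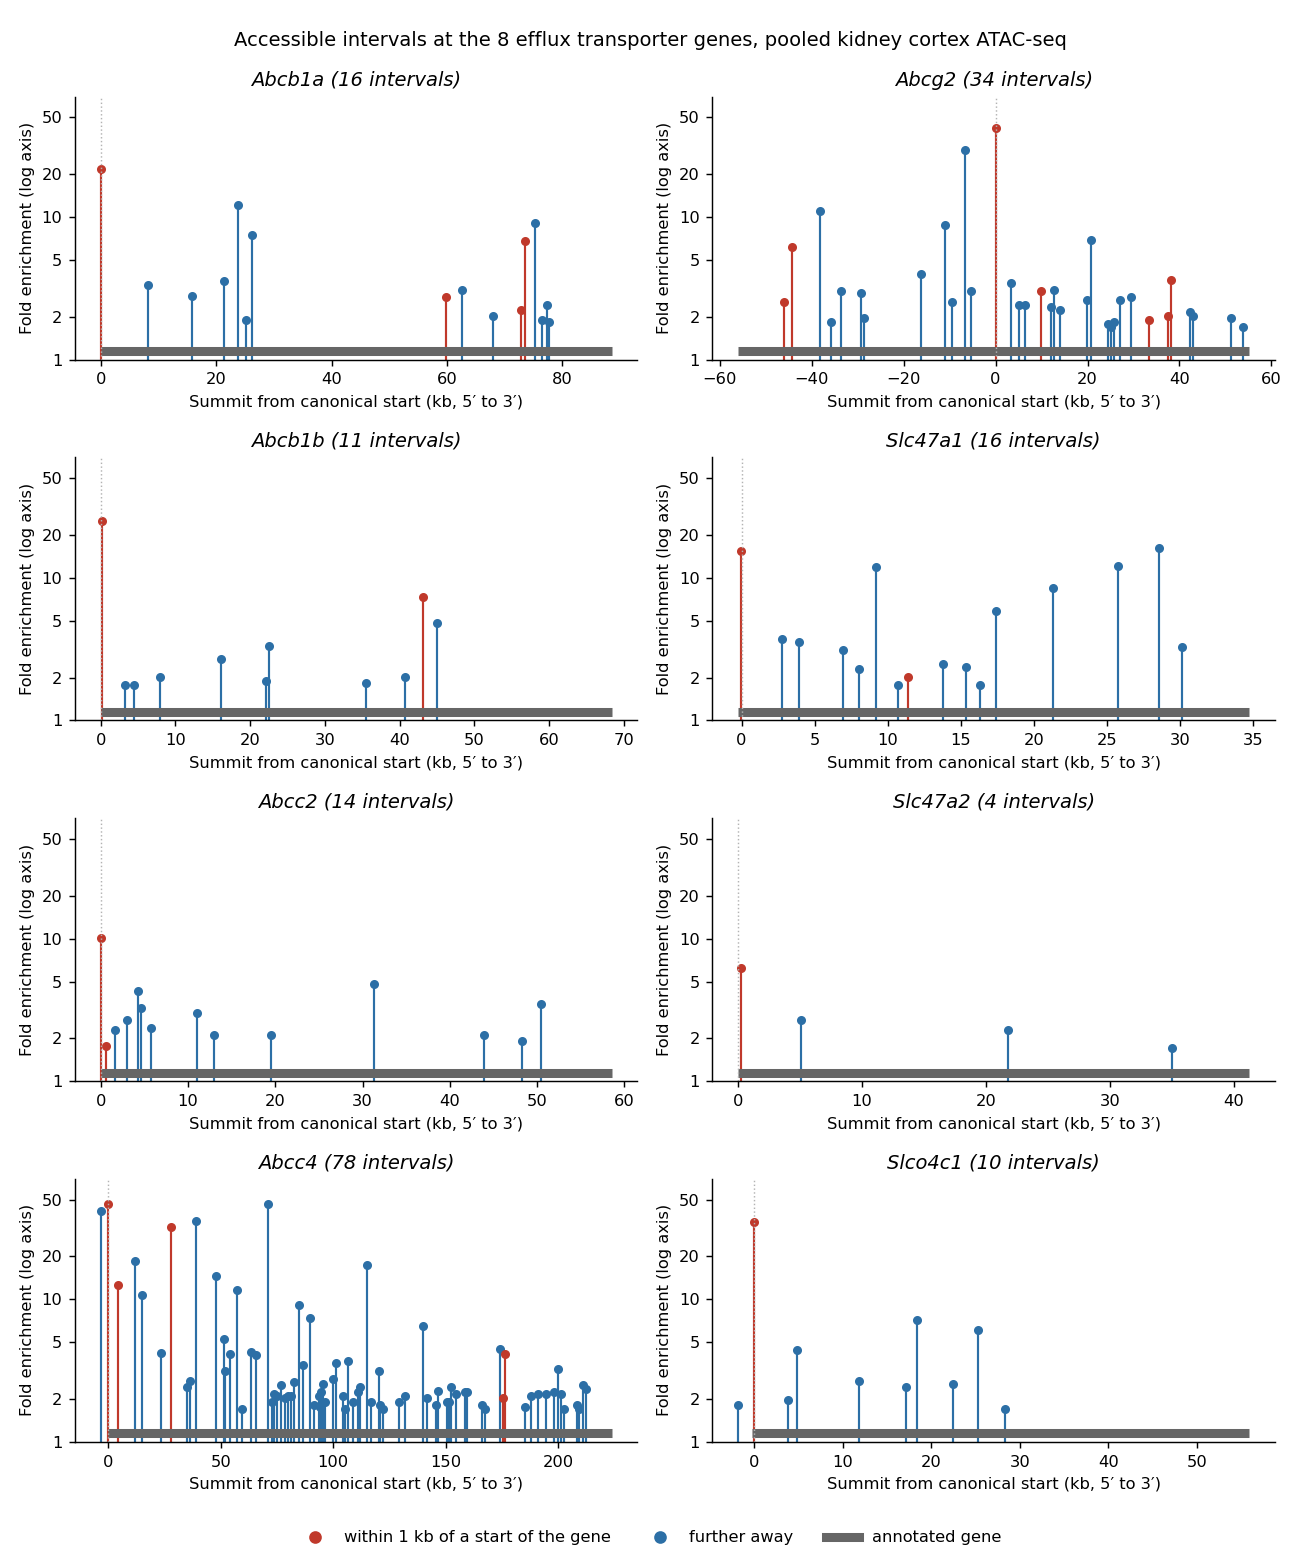
Each stem is 1 of the 183 intervals, placed by the distance of its highest summit from the canonical start (kb, in the direction of transcription) with its fold enrichment on a log axis, in red within 1 kb of a start of the gene and in blue further away. Abcc4 and Abcg2 carry strong intervals far from the canonical start, while at Abcc2 and Slc47a2 no interval but that at the start reaches 5-fold.

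Abcc4, the longest of the 8 genes, held the most intervals, 78 of the 183. This was 3.44 per 10 kb, with 42.3% of its region in an interval, both below the values of Slc47a1. Its strongest interval away from starts, chr14:118872266-118877616 in intron 4, reached 46.3-fold (42.9 to 49.8, pileup 706) at 70843 bp from the canonical start, which could not be told apart from the 46.7-fold of the start. Next came an upstream interval, chr14:118945398-118948924, of 41.4-fold (38.3 to 44.8), whose edge enters the region and whose summit lies 3387 bp before the canonical start, outside it. Intron 3 held 1 of 35.7-fold (chr14:118899454-118906790), and intron 1 held 1 of 32.2-fold (chr14:118910114-118919643), which covers the start of a shorter transcript, and 1 of 18.7-fold. In all, 12 intervals of Abcc4 away from its own starts reached 5-fold and 8 reached 10-fold, and its strongest of these was above that of 95.9% of the 1901 protein-coding genes within a factor of 2 of its length.

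Abcg2 stood out by the place of its canonical start. GENCODE lists 43 transcripts with 19 starts, against 87 transcripts with 15 starts at Abcb1b. The canonical start of Abcg2 lies 55996 bp after the outermost one, while at the other genes this distance was at most 237 bp. The interval at the canonical start was the strongest, the starts near chr6:58572874-58573552 had 6.15-fold, and the 4 outermost starts had no interval within 1 kb. Between the outer starts and the canonical start, an interval 6592 bp upstream of the latter (chr6:58609824-58611768) reached 29.5-fold (26.8 to 32.3, pileup 449), and others reached 11.0-fold at 38170 bp and 8.84-fold at 11042 bp upstream. Downstream, intron 2 held 6.87-fold. The gene held 34 intervals, and 26.0% of its region lay in an interval.

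Slc47a1 was the densest of the 8 loci for its size, with 16 intervals in the shortest gene, 4.22 per 10 kb, and 48.8% of its region covered. Its strongest interval lay away from its own starts, which held for 1 of the 8 genes and for 18.9% of protein-coding genes. That interval, chr11:61239375-61241257 in intron 14, reached 16.2-fold (14.3 to 18.4, pileup 247), and its counting interval overlapped that of the start (13.6 to 17.6), so the order of the 2 is not settled. Further intervals stood at 12.2-fold in intron 14, 11.9-fold in intron 5, 8.45-fold in intron 12 and 5.89-fold in intron 10. Its neighbour Slc47a2, of 41230 bp against 34946 bp, had 4 intervals, 0.904 per 10 kb, with 5.15% of the region covered, and its strongest interval beyond the start reached 2.68-fold in intron 3.

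The P-glycoprotein genes, alike at their starts, differed further in. Abcb1a held 16 intervals, with 12.2-fold in intron 5 (chr5:8733704-8734025, 10.6 to 14.1), 9.03-fold in intron 23 within 1 kb of the start of the gene Gm42686, 7.46-fold in coding exon 7 and 6.81-fold in intron 22 at an alternative start. Abcb1b held 11, with 7.33-fold in intron 21 within 1 kb of an alternative start and 4.84-fold (3.81 to 6.07) as the strongest away from its starts. The counting intervals of the strongest away from starts did not overlap between the 2 genes. At Slco4c1, intron 2 held 7.20-fold, 6.09-fold and 4.45-fold among 10 intervals, and at Abcc2 the strongest of 14 beyond the start were 4.84-fold in intron 15 and 4.26-fold in intron 2.

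The strongest intervals away from starts of the 4 genes that had 1 of at least 10-fold are shown over 200 bp around the summit, on the strand of the gene, because these intervals hold the strongest signal of the group outside starts. Capitals mark the CCAAT box and, at Abcb1a, the HNF1 palindrome and DR4, the element of CAR and PXR, which is 2 copies of AGGTCA with 4 bases between them, each with up to 2 mismatches. The Slc47a1 window is cut short for the same reason as above.
Abcb1a intron 5, chr5:8733777-8733976, strand +: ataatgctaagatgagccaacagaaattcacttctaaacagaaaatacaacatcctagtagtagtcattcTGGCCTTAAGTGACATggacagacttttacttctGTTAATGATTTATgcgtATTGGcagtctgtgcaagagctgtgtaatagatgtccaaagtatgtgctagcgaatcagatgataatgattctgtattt
Abcc4 intron 4, chr14:118872971-118873170, strand -: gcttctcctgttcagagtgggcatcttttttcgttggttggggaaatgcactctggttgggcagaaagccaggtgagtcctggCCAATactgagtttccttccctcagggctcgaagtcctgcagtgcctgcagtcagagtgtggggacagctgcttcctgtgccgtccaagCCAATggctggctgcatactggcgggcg
Abcg2 upstream of the canonical start, chr6:58610809-58611008, strand +: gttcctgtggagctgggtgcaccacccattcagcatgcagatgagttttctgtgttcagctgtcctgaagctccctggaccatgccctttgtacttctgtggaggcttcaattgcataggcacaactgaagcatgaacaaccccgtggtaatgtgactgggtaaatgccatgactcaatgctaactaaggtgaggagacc
Slc47a1 intron 14, chr11:61240336-61240479, strand -: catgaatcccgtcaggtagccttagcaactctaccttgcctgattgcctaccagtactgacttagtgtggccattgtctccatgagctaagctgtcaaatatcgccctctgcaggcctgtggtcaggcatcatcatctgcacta
None of the 14 windows of at least 10-fold away from starts of their own gene held a GC box. It was present in 57.5% of protein-coding start windows and in 8.15% of all summit windows. Of the 14 intervals, 1 at Abcc4 lay within 1 kb of the start of another gene, Mir6391. At Abcb1a the HNF1 palindrome lay 10 bp from the summit, from base 23859 to base 23871 after the start. A match to that palindrome was found in 2 of the 14 windows, the other in intron 5 of Slc47a1, and a match to DR1 (2 copies of AGGTCA with 1 base between them, up to 2 mismatches), the element of HNF4 and PPAR, in 1, in intron 1 of Abcc4. Over all summit windows the shares were 2.70% and 4.78%. The AGGTCA element itself was found in 3 of the 14 windows (17.7% of all), the antioxidant response element in 2 (10.6%), the xenobiotic response core GCGTG in 2 (14.2%), the CCAAT box in 5 (22.8%) and DR4 in 1 (3.38%). Neither DR1 nor DR4 was found in the 8 start windows of the members.

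**Figure D4:**
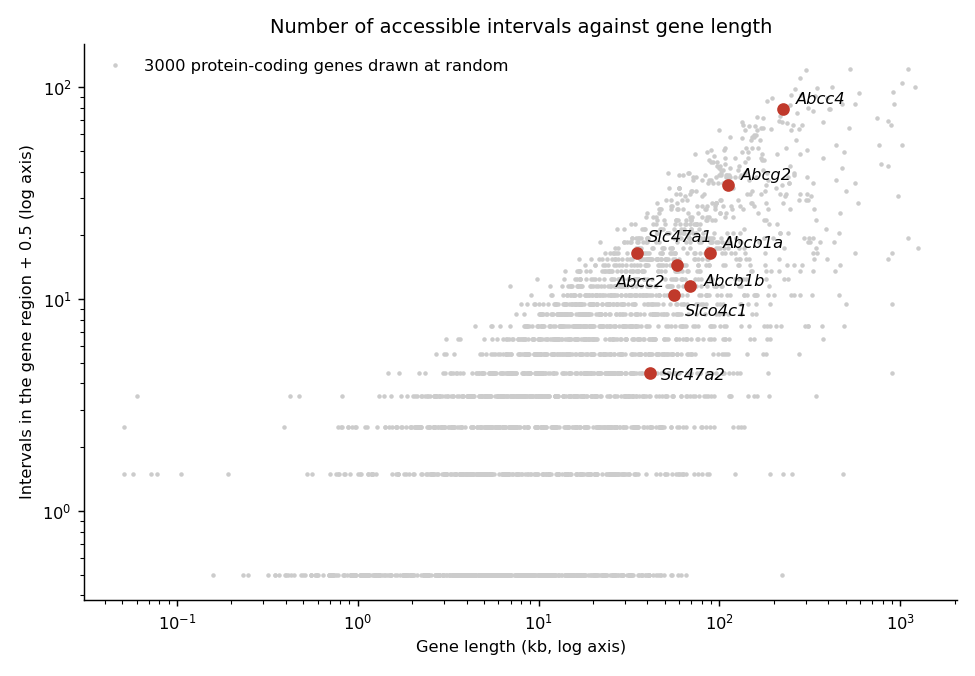
Number of intervals plus 0.5 against gene length in kb, both on log axes, in grey for 3000 protein-coding genes drawn at random and in red for the 8 transporter genes. Abcc4 (78 intervals) and Abcg2 (34) lie among the long genes with many intervals, and Slc47a2 (4) lies below Slc47a1 (16) at a similar length.

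Read against genes of like length, the number of intervals at Abcc4 was above that of 91.9%, at Slc47a1 above 86.0% and at Abcg2 above 81.7% of genes within a factor of 2 of their length. The other genes were above 63.5% (Abcc2), 57.1% (Abcb1a), 49.5% (Slco4c1), 48.7% (Abcb1b) and 23.5% (Slc47a2). The strongest interval of the 8 genes had a median rank above 48.7% of all protein-coding genes, and above 33.6% of those of like length.

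Reads were kept only where they mapped to 1 place. Of the words of 50 bases, the read length, in the 8 regions, 93.4% occurred once in GRCm39, against 85.9% at random positions. Abcb1a had the lowest share, 83.1%, with 2.02% of its words also in Abcb1b, and Slc47a1 the highest, 98.9%. In the start intervals of the 8 genes the share was 97.7% to 100%, so few of their words were repeated.

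Other genes of drug transport gave the setting. The basolateral and apical uptake carriers, which bring organic anions and cations into tubule cells, all had an interval at a start (12 of 12), but 8 of 12 reached 5-fold and their median was 9.03, from 2.42 at Slco1a1 to 55.6 at Slc22a5, the carnitine carrier OCTN2. Among other ABC exporters, 12 of 13 had a start interval and 11 reached 5-fold, with a median of 17.9, the highest at Abca1, the cholesterol exporter, followed by 48.6 at Abcc5, an exporter of cyclic nucleotides. Of 7 other Slco carriers, 5 had a start interval and 4 reached 5-fold, with a median of 28.0, and Slco1b2, known from the liver, had none. Regulators of transporter genes and scaffolds of the brush border had a start interval in 13 of 13 and 5-fold in 12, with a median of 30.5. The highest was Nfe2l2 (78.6), which encodes NRF2, and the lowest Nr1i3 (4.71), which encodes the xenobiotic receptor CAR. The median of the 8 genes, 23.4, lay between those of these lists, and 8 of 8 reached 5-fold. No test was made, since the lists were chosen by hand and the pool has no replicates.

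**Figure D5:**
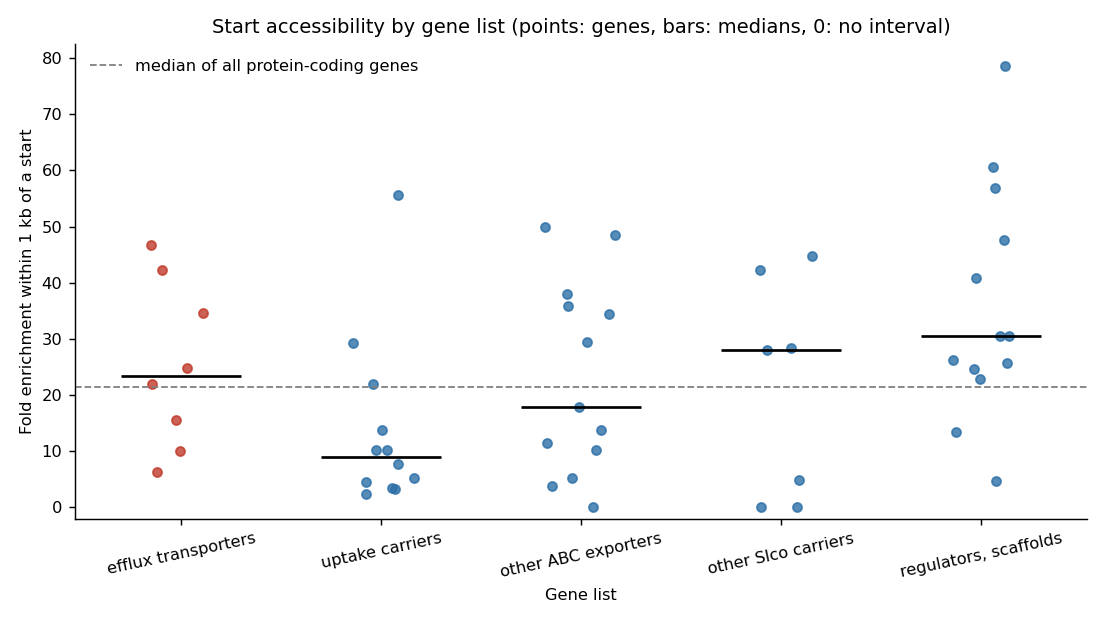
Highest fold enrichment within 1 kb of a start (linear axis, 0 where no interval was listed) for each gene of the 5 lists, in red for the 8 transporter genes, with black bars at the list medians and a dashed line at 21.5, the median of all protein-coding genes. The medians run from 9.03 for the uptake carriers to 30.5 for the regulators and scaffolds, with 23.4 for the 8 genes.

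The label of the tissue was checked against markers. Start intervals of at least 5-fold were found at 5 of 5 markers of the proximal tubule (7.40 to 33.1) and 2 of 2 of the thick limb (8.51 and 20.8), while Aqp2 of the collecting duct had 4.19 and Nphs1 of the podocyte had 3.54. Of 5 genes of other organs, 3 had a start interval and 0 reached 5-fold. Their starts reached at most 4.78, at Myh6, while away from their starts Myh6, Myod1 and Krt5 held 6.81-fold, 6.68-fold and 6.61-fold, close to the 6.22-fold of the Slc47a2 start. The starts of Aqp2 and Nphs1 lay below that of Myh6. The check therefore did not set the collecting duct or the podocyte apart from other organs.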

How the data were processed

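ATAC-seq libraries of 3 WT and 3 Acly cKO kidneys were grouped from their labels. By their methods, the authors used fastp for trimming and Bowtie2 2.3.4.3 for alignment to mm39, removed duplicates, kept uniquely mapped reads, called peaks with MACS3 3.0.0 at a q of 0.05 and removed blacklisted regions with bedtools 2.29.1. The deposited list gives the fold enrichment of each summit, a linear ratio, with its −log10 p and −log10 q, a score of 10 times the −log10 q, and the offset of the summit. The deposited list of unfiltered summits added no summit in the 8 regions. The narrowest interval listed, of 136 bp, lies under the extension stated in the methods.

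Summits were grouped into distinct intervals. The listed fold enrichments were whole multiples of the step to within 0.00766 of a step. The listed −log10 p was recovered from the pileup to within 0.000471% at 302 of the 1549 distinct fold enrichments. At the others the computed p was not finite, so they were not checked in this way. No test was made, since no column belongs to a library. Poisson and Wilson intervals are at 95% and cover counting error only. Named were all 8 genes, the strongest and the start interval of each and up to 5 further ones, and of each list at most 3 of the highest and lowest. The genes, lists and motifs were chosen with earlier results of these data known. Of the marker genes, 1 is not reported here. The scripts, tested on simulated data, used Python 3.11.15, NumPy 2.4.6, pandas 2.3.3, SciPy 1.17.1 and numba 0.67.0.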

Additional observations from a re-analysis of the deposited data

How the results depend on the processing

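Of 26 alternatives, 24 planned and 2 chosen after seeing the data, 16 left the value within the limit set for it. All 8 genes kept an interval at a start under each of the 5 alternatives tried for that count. The strongest interval at each canonical start had at least 6.22-fold and a highest summit within 255 bp of that start. These alternatives therefore had little room to change the count. The median fold enrichment of 23.4 did not move under its 3. The alternative that chose the summit by fold enrichment could not move it, since each fold enrichment goes with a single value of q. The 4 windows with an HNF1 palindrome or DR1 became 3 in windows of 100 bp. The 183 intervals became 100 at a q under 1e-05, 39 at 5-fold or more, 542 when summits were counted and 105 without Abcc4. The 152 intervals away from starts became 79 at a q under 1e-05, 24 at 5-fold or more and 84 without Abcc4. The median rank of 48.7% moved to 54.4% at the canonical start and to 33.6% among genes of like length, and the share of unique words from 93.4% to 97.1% with words of 100 bases. No paired analysis was possible because the peak list holds no column for any library, so libraries could not be left out either. The depth of the libraries is not known from the list, whose lowest pileup was 25, so accessible sites under that level are not listed.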

Other observations

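Beyond the 8 regions, the 50 kb flanks held intervals stronger than the start of the transporter itself at 4 genes. How many of all protein-coding genes have such a flank was not counted, so the 4 are a description only. Next to Slc47a2 the strongest flanking interval reached 40.1-fold, 3 bp from a start of Aldh3a2, against 6.22-fold at the start of Slc47a2. Next to Abcc2 it reached 32.2-fold, 8 bp from a start of Cox15, and next to Abcb1a 39.5-fold, 76 bp from a start of Rundc3b. Next to Slc47a1 it reached 17.0-fold, 335 bp from a start of Gm45605, which lay inside the counting interval of the Slc47a1 start (13.6 to 17.6). Next to Abcg2 the strongest flanking interval reached 4.84-fold, and the flanks held 4 intervals in all. Nr1i3, with 4.71-fold at its start, had 80.3-fold more than 1 kb from all its starts, a value chosen after it was seen. Whether that interval lies at the start of another gene was not checked.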
